A study of Mus musculus with 6 samples.

Results

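Immediate early regulators other than AP-1 subunits were followed in mouse liver through an acetaminophen overdose with and without costunolide. They were 10 genes taken by name, *Egr1*, *Ier2*, *Ier3*, *Klf2*, *Klf4*, *Klf6*, *Klf10*, *Nr4a1*, *Myc* and *Zfp36*, out of 55401 genes in the deposited table. Of these, 9 had a mean of at least 1 FPKM over the libraries (fragments per kilobase of transcript scaled to library size, a level corrected for length and depth) and entered the tests, as did 10051 genes in all. *Klf4* was under that minimum and is given as values. *Ier3* and *Nr4a1* passed it on the APAP libraries alone, so that for both genes a difference from APAP was built into passing.

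The livers were from C57BL/6 mice, an inbred strain, in 3 groups with 2 libraries each. Mice of the COS+APAP group (replicates 2 and 3) had costunolide (COS, a sesquiterpene lactone from plants) at 20 mg/kg, first 12 h and then 40 min ahead of acetaminophen (APAP, paracetamol) at 400 mg/kg into the peritoneum, which lasted 6 h. APAP mice (replicates 1 and 3) had the same acetaminophen dose and time without costunolide. Control mice (replicates 1 and 3) were labelled normal, and whether they had a vehicle injection is not stated in the sources used, nor is the age of any group. One protocol sentence assigns the pretreatment to samples numbered 5 and 6, positions that in accession order belong to the libraries titled model and labelled APAP. Were that sentence right and the titles wrong, every difference between COS+APAP and APAP below would be of the opposite sign, and the comparisons of these groups with control would change places. Only COS+APAP libraries have titles with the prefix 2, so a batch behind that prefix and costunolide cannot be told apart. Whether both libraries of a group are from different mice is not stated in the labels. The p-values then measure only the spread between these libraries, which may be technical.

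Immediate early genes are transcribed within minutes of a stimulus from factors already present in the cell, without new protein synthesis. Serum response factor with its ternary complex partners, CREB and NF-kappaB are among the factors that start them, downstream of MAP kinases. Most of their mRNAs and proteins are short-lived, and many products are transcription factors or feedback regulators that shape a later wave of genes. In liver, such genes respond to partial hepatectomy, to cell stress and to fasting hormones.

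The libraries held 71115112 to 76669799 estimated counts. The most frequent count between 1 and 20 was 4 in every library, so a fragment was taken to be worth about 4 counts and the counts overstate the number of fragments behind a low value. The hepatocyte marker *Alb*, serum albumin, lay at 26619 to 39526 FPKM, and the sum of 5 adipocyte markers at 1.67 to 7.09 FPKM, where the protocol text also speaks of an adipose sample. The COS+APAP libraries differed from each other in these regulators. Replicate 3 was above replicate 2 for 9 of the 10 and at least 2-fold above it for 6 (*Egr1*, *Ier2*, *Klf4*, *Klf6*, *Nr4a1* and *Myc*), while 3.13% of 10029 genes above 0 in both were at least 2-fold higher in replicate 3 and 2.47% at least 2-fold lower. The median log2 ratio of COS+APAP replicate 3 to replicate 2 was 1.21 over the 10 and −0.01 over those 10029 genes. Between the APAP libraries none of the 10 was at least 2-fold higher in replicate 3 and 1 (*Ier3*) was at least 2-fold lower, and between the control libraries 0 and 1 (*Egr1*). The shares over all genes above 0 in both libraries were 3.09% higher and 2.31% lower in APAP, and 3.85% and 2.94% in control. Results are therefore given with and without each COS+APAP library where it matters.

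Most of the regulators stood high in APAP livers, and lower in COS+APAP and in control livers. Of the 9 tested, 6 were lower and none higher in COS+APAP than in APAP livers (*Egr1*, *Ier2*, *Ier3*, *Nr4a1*, *Klf10* and *Zfp36*; edgeR quasi-likelihood test, adjusted p below 0.05 over all genes tested). Of all 10051 genes tested, 11.1% were called lower and 11.2% higher in that comparison. APAP livers had 6 of the 9 higher than control livers and none lower (*Egr1*, *Ier2*, *Ier3*, *Klf6*, *Nr4a1* and *Zfp36*), beside 23.3% of all genes called higher and 22.1% called lower. Between COS+APAP and control livers none of the 9 was called in either direction, beside 10.7% called higher and 10.3% called lower. At an unadjusted p below 0.05, 2 of the 9 differed there (*Klf6* higher and *Klf10* lower). DESeq2 called both of them, beside 1698 of all 10051 genes higher and 1723 lower. Limma called *Klf10* alone, beside 1638 lower on log2(FPKM + 1) and 1562 on log2(FPKM + 0.1). Between COS+APAP and APAP, DESeq2 called all 9 lower, beside 1806 of all 10051 genes. Limma called 8 lower there, beside 1177 on log2(FPKM + 1) and 1122 on log2(FPKM + 0.1). Without *Ier3* and *Nr4a1*, which passed the filter on APAP alone, 4 of 7 were lower in COS+APAP than in APAP and 4 of 7 higher in APAP than in control.

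The levels of single libraries were also set side by side. Both COS+APAP libraries were below both APAP libraries for 9 of the 10 regulators, all but *Klf4*, against 35.3% of all genes tested. Both APAP libraries were above both control libraries for 9 of the 10, all but *Klf10*, against 32.1% of all genes tested. COS+APAP libraries were both below control for 5 (*Ier3*, *Klf2*, *Klf10*, *Nr4a1* and *Myc*), both above it for 1 (*Klf6*) and overlapped it for 4 (*Egr1*, *Ier2*, *Klf4* and *Zfp36*), where 42.3% of all genes tested were both below and 25.0% both above. The first 2 comparisons share the APAP libraries, so a library high in APAP enters both with opposite signs. In bulk liver RNA, fewer cells of a type and less RNA per cell cannot be told apart.

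**Figure D1:**
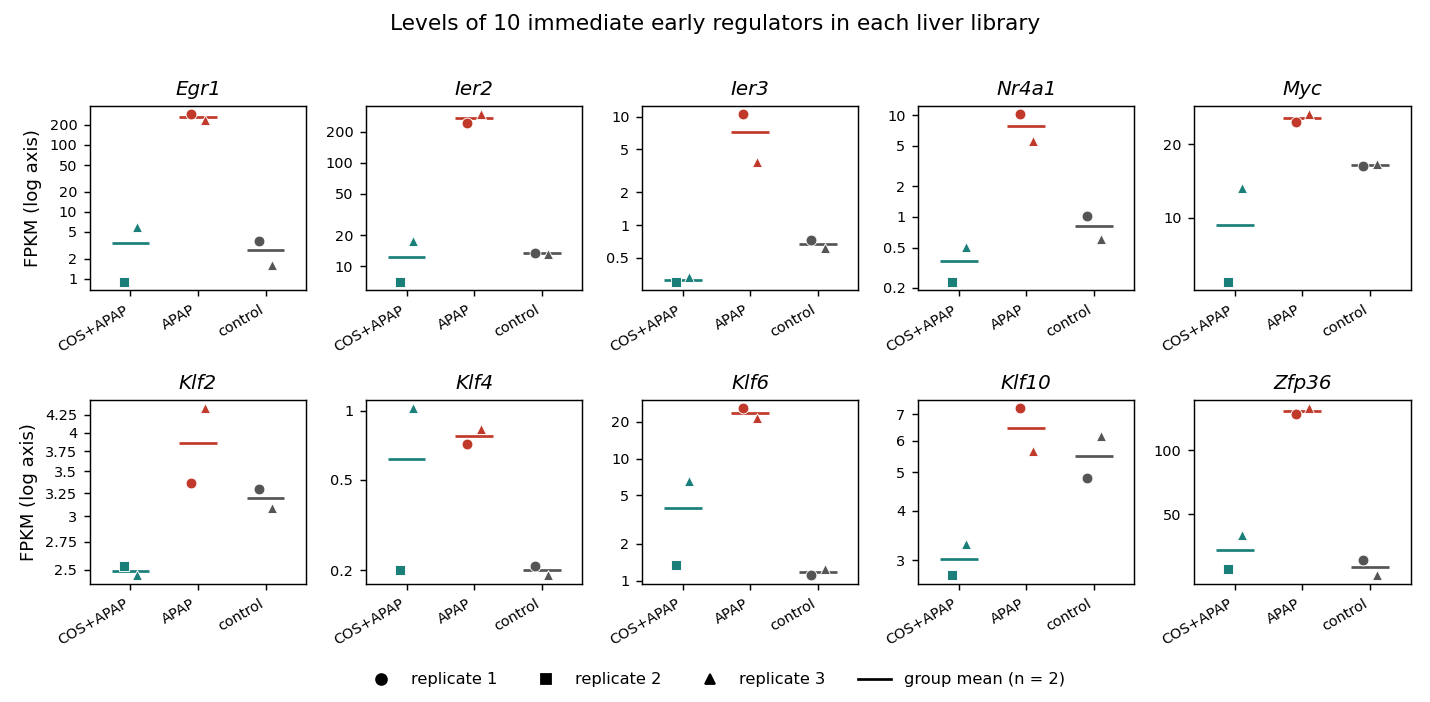
FPKM of each of the 10 regulators (y axis, log scale, 1 panel a gene) in COS+APAP, APAP and control livers (x axis), with points for libraries, shapes for replicate numbers and bars for group means (n = 2). Both APAP points stand above both control points for every gene but *Klf10*, and the COS+APAP replicates lie far apart for *Egr1*, *Klf4* and *Klf6*.

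On a log scale *Egr1* had the widest range of the 10. It encodes a zinc finger transcription factor that binds GC-rich sites and is induced by growth factors and injury. The gene lies on chromosome 18 (34859823 to 34864984, plus strand). Its level was 0.90 and 6.01 FPKM in COS+APAP livers, 285 and 232 FPKM in APAP livers and 3.72 and 1.59 FPKM in control livers. The APAP libraries stood far above all others, while the COS+APAP values enclosed both control values. The fitted log2 fold change was −6.20 in COS+APAP against APAP (SE 1.07, edgeR adjusted p = 0.0174), a 73.7-fold lower level. It was 6.74 in APAP against control (SE 1.10, edgeR adjusted p = 0.00632), 107-fold higher. The COS+APAP against control value was 0.54 (SE 0.87, edgeR adjusted p = 0.692), and its sign hung on 1 library, with 1.34 without COS+APAP replicate 2 and −1.41 without COS+APAP replicate 3. Without APAP replicate 1 the difference of COS+APAP from APAP was −6.02 and no longer called (edgeR adjusted p = 0.0651). It was −5.40 without COS+APAP replicate 2 and −8.15 without COS+APAP replicate 3. The APAP against control difference was 7.50 without control replicate 1 and 6.25 without control replicate 3.

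*Myc* encodes the helix-loop-helix factor that pairs with MAX on E boxes and drives ribosome production and cell growth, and it lies on chromosome 15 (61985391 to 61990350, plus strand). It was present at rest, with 5.49 and 13.2 FPKM in COS+APAP livers, 24.6 and 26.4 FPKM in APAP livers and 16.2 and 16.6 FPKM in control livers. The 3 groups did not overlap, and COS+APAP was the lowest and the most spread. With all 6 libraries no difference of *Myc* passed the edgeR test. It was −1.42 in COS+APAP against APAP (SE 0.40, edgeR adjusted p = 0.0561), 0.77 in APAP against control (SE 0.39, edgeR adjusted p = 0.16) and −0.65 in COS+APAP against control (SE 0.39, edgeR adjusted p = 0.287). DESeq2 called it lower in COS+APAP than in APAP (−1.44, adjusted p = 0.00271), as did limma on log2(FPKM + 1) (−1.46, adjusted p = 0.0428). The spread between the COS+APAP libraries entered all 3 edgeR tests. Without COS+APAP replicate 2 the APAP against control difference was still 0.77 and was called (edgeR adjusted p = 0.00905), as it was without COS+APAP replicate 3 (edgeR adjusted p = 0.00947) and with the libraries of APAP and control alone (0.76, edgeR adjusted p = 0.0101). The COS+APAP against APAP difference was −0.92 without COS+APAP replicate 2 and −2.20 without COS+APAP replicate 3. Both fits leave 1 COS+APAP library, so the spread between the COS+APAP libraries no longer enters them. Against control, COS+APAP gave −0.14 without COS+APAP replicate 2 and −1.43 without COS+APAP replicate 3.

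*Nr4a1* encodes an orphan nuclear receptor, also called NUR77, which in mouse liver is induced by glucagon and cAMP and raises genes of gluconeogenesis. It lies on chromosome 15 (101254269 to 101274795, plus strand). Its promoter, from 250 bases before to 50 bases after the RefSeq start (assembly GRCm38.p6), is printed because it holds 4 copies of the CRE core TGACG, the core letters of the element that CREB binds. All 4 lie on the other strand, so the capitals mark the reversed letters, with first bases at −233, −213, −69 and −40 from the start.
*Nr4a1* promoter, chr15:101266596-101266895, plus strand: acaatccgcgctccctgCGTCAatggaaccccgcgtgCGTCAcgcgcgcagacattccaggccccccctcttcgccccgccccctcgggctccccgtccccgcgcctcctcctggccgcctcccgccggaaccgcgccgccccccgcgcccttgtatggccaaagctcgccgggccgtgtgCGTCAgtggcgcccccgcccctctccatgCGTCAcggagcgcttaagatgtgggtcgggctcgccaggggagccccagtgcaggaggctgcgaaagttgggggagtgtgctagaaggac

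*Nr4a1* stood at 0.23 and 0.51 FPKM in COS+APAP livers, 10.2 and 5.60 FPKM in APAP livers and 1.01 and 0.61 FPKM in control livers. The 3 groups did not overlap, with COS+APAP lowest. The log2 fold change was −4.38 in COS+APAP against APAP (SE 0.57, edgeR adjusted p = 0.01), which is 20.8-fold lower. It was −3.92 without COS+APAP replicate 2 and −5.06 without COS+APAP replicate 3. It was 3.42 in APAP against control (SE 0.54, edgeR adjusted p = 0.0057), which is 10.7-fold higher. COS+APAP against control gave −0.96 (SE 0.51) and was not called (edgeR adjusted p = 0.232), although both COS+APAP values lay under both control values. That difference was −0.50 without COS+APAP replicate 2 and −1.64 without COS+APAP replicate 3.

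The Krüppel-like factors bind GC-rich and CACCC sites through 3 zinc fingers, and the 4 studied here differed in level and in call. *Klf6* is an injury-induced member expressed in hepatocytes, stellate cells and endothelium, on chromosome 13 (5861482 to 5870394, plus strand). It stood at 1.33 and 6.56 FPKM in COS+APAP livers, 25.95 and 21.6 FPKM in APAP livers and 1.10 and 1.24 FPKM in control livers. The groups did not overlap, but COS+APAP replicate 2 was close to control and replicate 3 was well above it. *Klf6* rose in APAP against control with a log2 fold change of 4.48 (SE 0.78, edgeR adjusted p = 0.00757). The COS+APAP against APAP difference was −2.57 (SE 0.71) and missed the threshold (edgeR adjusted p = 0.0544). It was −1.83 without COS+APAP replicate 2 and −4.15 without COS+APAP replicate 3. Both fits leave 1 COS+APAP library, so the spread between the COS+APAP libraries no longer enters them. Against control, COS+APAP gave 1.91 (SE 0.70, edgeR adjusted p = 0.11). That difference was 2.65 without COS+APAP replicate 2 and 0.33 without COS+APAP replicate 3, so its size hung on 1 library.

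*Klf10*, first described as a gene induced by TGF-beta and in mouse liver also under clock and glucose control, lies on chromosome 15 (38291463 to 38300706, minus strand). Its values were 2.75 and 3.30 FPKM in COS+APAP livers, 7.26 and 5.65 FPKM in APAP livers and 4.85 and 6.16 FPKM in control livers. APAP and control values overlapped, and COS+APAP was below both. *Klf10* fell in COS+APAP against APAP with a log2 fold change of −1.08 (SE 0.21, edgeR adjusted p = 0.0223). That call was lost without COS+APAP replicate 2 (−0.94, edgeR adjusted p = 0.102), without COS+APAP replicate 3 (−1.22, edgeR adjusted p = 0.0654) and without APAP replicate 1 (−0.85, edgeR adjusted p = 0.0915). The APAP against control difference was 0.37 (SE 0.21, edgeR adjusted p = 0.193) and that of COS+APAP against control −0.70 (SE 0.21, edgeR adjusted p = 0.0656).

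*Klf2* maintains quiescent endothelium under blood flow and lies on chromosome 8 (72319033 to 72321656, plus strand). Its promoter is printed beside that of *Nr4a1* as one with a single CRE core, in capitals. *Klf2* was not called by edgeR in any comparison. The core was absent from the promoters of *Ier3*, *Klf6* and *Zfp36*, which were called higher in APAP than in control. Whether such cores go with the calls was not tested.
*Klf2* promoter, chr8:72318812-72319111, plus strand: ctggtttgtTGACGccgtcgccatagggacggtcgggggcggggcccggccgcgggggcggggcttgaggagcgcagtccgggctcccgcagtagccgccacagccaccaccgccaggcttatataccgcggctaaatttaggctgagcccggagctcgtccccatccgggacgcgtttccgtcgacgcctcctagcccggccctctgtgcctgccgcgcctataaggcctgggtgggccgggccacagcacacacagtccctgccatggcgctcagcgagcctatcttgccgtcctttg

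*Klf2* had 2.53 and 2.45 FPKM in COS+APAP livers, 3.36 and 4.35 FPKM in APAP livers and 3.29 and 3.09 FPKM in control livers. The groups did not overlap, yet they lay within a narrow range. The log2 fold changes were −0.61 in COS+APAP against APAP (SE 0.19, edgeR adjusted p = 0.0694), 0.41 in APAP against control (SE 0.19, edgeR adjusted p = 0.127) and −0.20 in COS+APAP against control (SE 0.19, edgeR adjusted p = 0.476). DESeq2 called the first of these (−0.62, adjusted p = 0.00816). *Klf4*, a relative of *Klf2* in endothelium and a reprogramming factor, lies on chromosome 4 (55527143 to 55532466, minus strand). It had 0.20 and 1.03 FPKM in COS+APAP livers, 0.72 and 0.83 FPKM in APAP livers and 0.21 and 0.19 FPKM in control livers. COS+APAP replicate 2 was at the control level and replicate 3 above both APAP libraries. With no filter on low values, *Klf4* was not called in any comparison, at −0.28 in COS+APAP against APAP (edgeR adjusted p = 0.877), 2.09 in APAP against control (edgeR adjusted p = 0.105) and 1.81 in COS+APAP against control (edgeR adjusted p = 0.229).

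*Ier2* and *Ier3* share a name but no known family. *Ier2* encodes a small nuclear protein of an unspliced gene on chromosome 8 (84661331 to 84662854, minus strand). It stood at 7.11 and 17.8 FPKM in COS+APAP livers, 243 and 293 FPKM in APAP livers and 13.6 and 13.2 FPKM in control livers. The APAP libraries stood apart, and the COS+APAP values lay on both sides of the control values. The log2 fold change was −4.40 in COS+APAP against APAP (SE 0.47, edgeR adjusted p = 0.00713), or 21.2-fold lower, and 4.46 in APAP against control (SE 0.47, edgeR adjusted p = 0.00216), or 22.0-fold higher. Without COS+APAP replicate 3 the difference from APAP was −5.22 (edgeR adjusted p = 0.0121), and without COS+APAP replicate 2 it was −3.89 (edgeR adjusted p = 0.0165). Against control, COS+APAP gave 0.06 (SE 0.41, edgeR adjusted p = 0.936). Per length of transcript, *Ier2* and *Egr1* had the highest levels of the 10 in APAP livers, with means of 268 ± 35.1 and 259 ± 37.8 FPKM (SD, n = 2).

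*Ier3* encodes a membrane protein that modulates survival and ERK signalling, and its mRNA carries AU-rich elements. It lies on chromosome 17 (35821684 to 35822923, plus strand). Its level was 0.30 and 0.33 FPKM in COS+APAP livers, 10.5 and 3.80 FPKM in APAP livers and 0.73 and 0.62 FPKM in control livers. The groups did not overlap, with COS+APAP lowest, on only 27 and 31 estimated counts. The log2 fold change was −4.46 in COS+APAP against APAP (SE 0.58, edgeR adjusted p = 0.0104), or 22.1-fold lower. The call was lost without COS+APAP replicate 2 (edgeR adjusted p = 0.0581) and without COS+APAP replicate 3 (edgeR adjusted p = 0.0521), with values of −4.40 and −4.53. *Ier3* rose in APAP against control by 3.54 (SE 0.55, edgeR adjusted p = 0.00555), while COS+APAP against control gave −0.92 (SE 0.55, edgeR adjusted p = 0.276). Without APAP replicate 1, the higher of the APAP libraries, the values were −3.51 in COS+APAP against APAP (edgeR adjusted p = 0.0302) and 2.58 in APAP against control (edgeR adjusted p = 0.0143).

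*Zfp36* encodes tristetraprolin, which binds AU-rich elements in short-lived mRNAs of cytokines and early genes and brings them to decay. It lies on chromosome 7 (28376784 to 28380253, minus strand), and 1274 bases are shared with the antisense gene *Gm44710*, which was at 0.00 to 0.55 FPKM in the 6 libraries. Reads of both genes cannot be told apart there unless counting used strand. Its promoter is printed because it alone among those searched holds a CArG box, the site of serum response factor. The capitals mark that box, whose first base lies at −58 from the RefSeq start.
*Zfp36* promoter, chr7:28379179-28379478, minus strand: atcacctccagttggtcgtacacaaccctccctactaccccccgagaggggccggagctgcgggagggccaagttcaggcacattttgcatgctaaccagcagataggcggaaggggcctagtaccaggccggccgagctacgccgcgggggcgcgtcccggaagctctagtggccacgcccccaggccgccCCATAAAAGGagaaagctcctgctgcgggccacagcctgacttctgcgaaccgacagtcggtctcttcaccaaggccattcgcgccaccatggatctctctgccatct

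*Zfp36* stood at 27.5 and 40.0 FPKM in COS+APAP livers, 148 and 159 FPKM in APAP livers and 30.5 and 25.7 FPKM in control livers. The APAP libraries stood apart, and COS+APAP overlapped control. *Zfp36* had the smallest adjusted p of the 10 in both comparisons with APAP. Its log2 fold change was −2.16 in COS+APAP against APAP (SE 0.22, edgeR adjusted p = 0.00635), or 4.48-fold lower, and 2.58 in APAP against control (SE 0.22, edgeR adjusted p = 0.00151), or 6.00-fold higher. Against control, COS+APAP gave 0.42 (SE 0.21, edgeR adjusted p = 0.202).

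**Figure D2:**
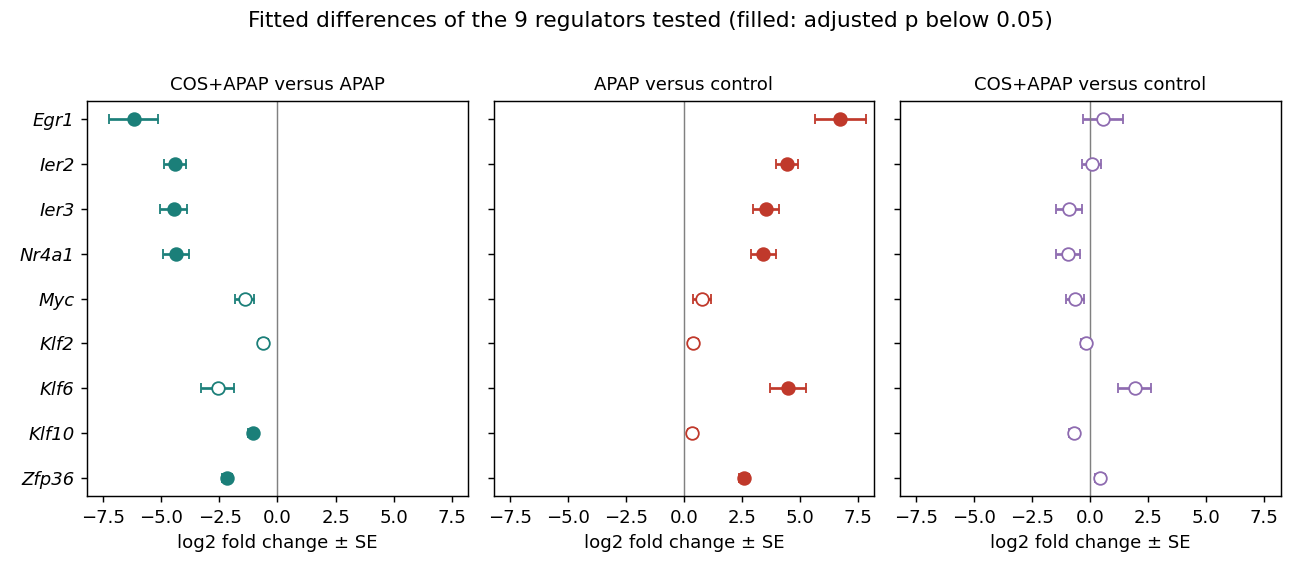
Fitted log2 fold changes (x axis, with SE bars) of the 9 regulators tested (rows) in the 3 comparisons (panels), filled where the edgeR adjusted p was below 0.05. *Egr1* lies farthest from 0 in both comparisons with APAP, at −6.20 and 6.74, and no point is filled in COS+APAP against control.

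Over the 9 tested regulators the median log2 fold change was −2.57 in COS+APAP against APAP, 3.42 in APAP against control and −0.20 in COS+APAP against control, where the median over all genes tested was 0.01, 0.00 and 0.02. With library totals alone as the scaling, the median over all genes was −0.16 in both comparisons with control, and with upper quartile scaling it was 0.12 in COS+APAP against APAP. The split of called genes moved with it, while the members called in the comparisons with APAP stayed 6 and 6 in number. COS+APAP against APAP had 1130 genes called higher and 1119 lower, and 1567 and 930 with upper quartile scaling. APAP against control had 2342 higher and 2219 lower, and 1869 and 2814 with library totals alone. COS+APAP against control had 1073 higher and 1036 lower, and 706 and 1644 with library totals alone, a scaling under which *Klf10* was called lower (−0.88, edgeR adjusted p = 0.0309).

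Leaving out single libraries moved some calls and no direction among the 9 regulators in COS+APAP against APAP. Each of these fits leaves 1 library in a group, so the spread of that group no longer enters the test. A call gained in this way is no added support for a difference. Without COS+APAP replicate 2, and likewise without COS+APAP replicate 3, *Ier3* and *Klf10* lost their calls and *Klf6* and *Myc* gained calls. Without APAP replicate 1, *Egr1* and *Klf10* lost theirs. With each of the 6 libraries left out in turn, *Ier2* ranged from −5.22 to −3.89, *Nr4a1* from −5.06 to −3.85 and *Zfp36* from −2.47 to −1.91. In APAP against control no member lost its call, and *Myc* gained a call where the library left out was of COS+APAP.

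**Figure D3:**
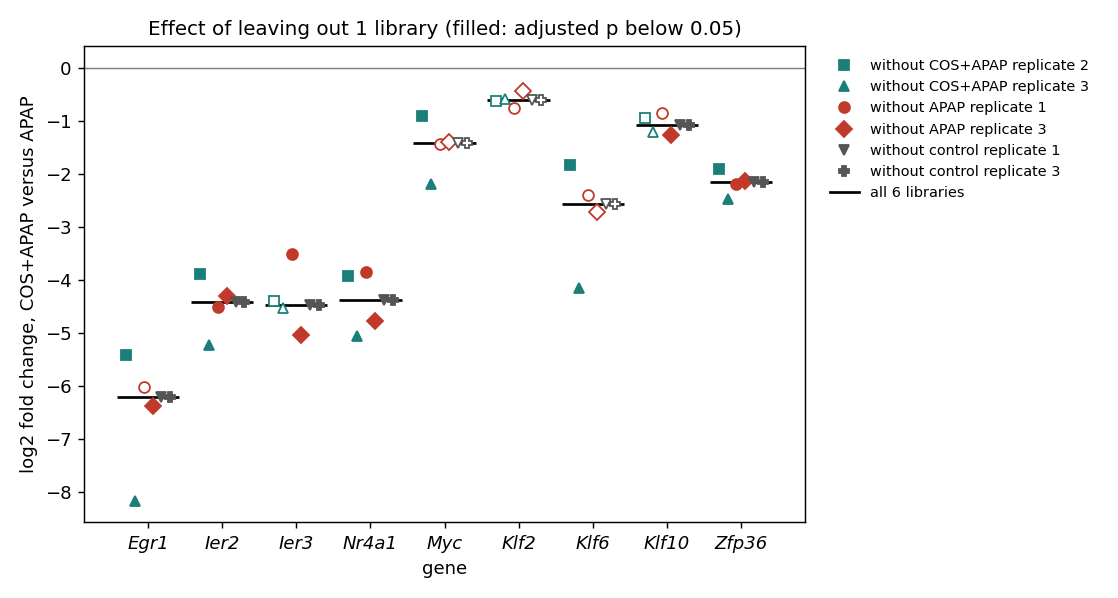
Log2 fold change of COS+APAP against APAP (y axis) for the 9 regulators tested (x axis) with each of the 6 libraries left out in turn (symbols, filled where the edgeR adjusted p was below 0.05) and with all 6 (black bars). *Egr1* ranges from −8.15 without COS+APAP replicate 3 to −5.40 without COS+APAP replicate 2, and every symbol lies below 0.

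Other immediate early regulators, with AP-1 subunits, dual specificity phosphatases and Sprouty genes left out, are shown for comparison. This list and those after it were chosen with earlier results of these data known. Of 42 listed, 32 were tested. COS+APAP had 21 of the 32 lower than APAP and none higher, beside 11.1% and 11.2% of all genes tested. The median log2 fold change was −1.62. The largest called differences were *Hbegf*, a ligand of the EGF receptor (−4.67), *Btg2*, an antiproliferative cofactor of mRNA deadenylation (−3.87), the matricellular *Ccn1* (−2.78) and the pseudokinase *Trib1* (−2.54). APAP had 27 higher than control and 1 lower (*Tob1*, −0.86), beside 23.3% and 22.1% of all genes tested, with a median of 1.73. *Btg2* (5.87), the small MAF factor *Maff* (5.72), *Hbegf* (4.96) and *Ier5* (3.06) led there. *Hbegf* passed the filter through APAP alone, so both of its calls were built into passing, and without it 20 of 31 were lower in COS+APAP than in APAP and 26 of 31 higher in APAP than in control. Against control, COS+APAP had 8 higher and 2 lower, beside 10.7% and 10.3% of all genes tested, with a median of 0.45. The largest were *Btg2* (2.00), *Phlda1* (−1.81), the repressor *Nfil3* (1.63) and *Cebpd* (1.57). *Maff* repeated the gap between the COS+APAP libraries, with 0.94 and 25.2 FPKM in COS+APAP livers, 92.3 and 67.5 FPKM in APAP livers and 2.13 and 1.19 FPKM in control livers.

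**Figure D4:**
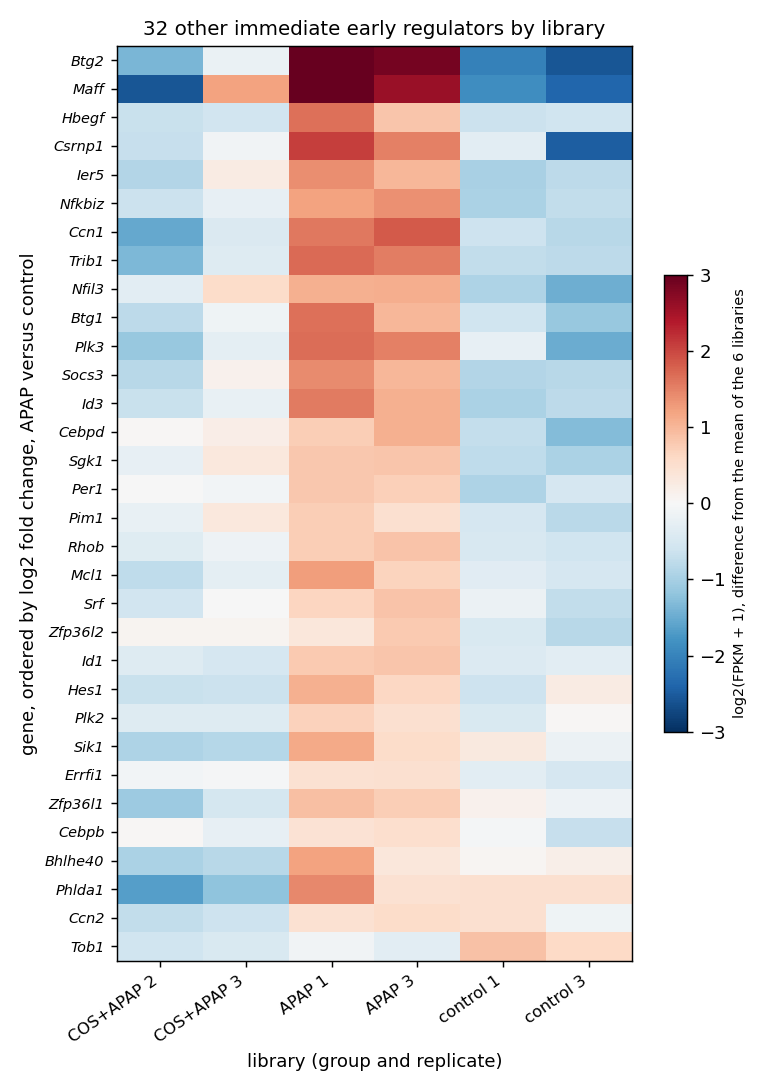
Log2(FPKM + 1) of the 32 other immediate early regulators tested (rows, ordered by the APAP against control difference) in the 6 libraries (columns), as the difference from the mean of each gene (colour, clipped at −3 and 3). The APAP columns are red for most rows, and COS+APAP replicate 3 is redder than replicate 2 for *Maff* and *Ier5*.

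Factors known to act upstream of immediate early genes were counted in the same fit. For scale, 11.1% of all genes tested were lower in COS+APAP than in APAP. The share higher than control was 23.3% in APAP and 10.7% in COS+APAP. Of serum response factor and its cofactors 4 of 7 listed were tested. All 4 were higher in APAP than in control (*Srf* 1.59, *Mrtfb* 1.14, *Mrtfa* 0.87 and *Elk4* 0.75), and 2 were lower in COS+APAP than in APAP (*Mrtfb* −1.24 and *Mrtfa* −0.82). *Elk4*, a ternary complex factor, was also higher in COS+APAP than in control (0.65), the 1 of 4 called there. Of the CREB family and its coactivators 6 of 8 were tested, and 3 were higher in APAP than in control (*Atf1* 1.67, *Crem* 1.02 and *Crtc3* 0.67). *Atf1* alone was lower in COS+APAP than in APAP (−1.44), and none of the 6 was called in COS+APAP against control by edgeR. *Nab1* and *Nab2*, corepressors bound by EGR proteins, were both tested. *Nab1* was lower in COS+APAP than in APAP (−0.57) and higher in APAP than in control (0.38), whereas *Nab2* was called in no comparison.

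Other Krüppel-like factors differed in direction, with 6 of 13 tested. Over all genes tested, 11.1% were lower and 11.2% higher in COS+APAP than in APAP. The shares in APAP against control were 23.3% higher and 22.1% lower, and 10.7% were higher in COS+APAP than in control. COS+APAP had 2 lower than APAP (*Klf11* −2.22 and *Klf3* −1.51) and 2 higher (*Klf15* 1.46 and *Klf1* 1.45). APAP had 3 higher than control (*Klf3* 1.86, *Klf11* 1.58 and *Klf9* 1.18) and 2 lower (*Klf15* −1.73 and *Klf1* −1.51). *Klf9*, a glucocorticoid-induced repressor, was the 1 called in COS+APAP against control (1.15). *Klf15* promotes amino acid breakdown and gluconeogenesis in mouse liver. It stood at 44.0 and 42.8 FPKM in COS+APAP livers, 12.1 and 20.1 FPKM in APAP livers and 65.9 and 50.7 FPKM in control livers.

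Genes known to act with or downstream of the regulators came from the same fit. Over all genes tested, 11.1% were lower and 11.2% higher in COS+APAP than in APAP. The shares higher and lower were 23.3% and 22.1% in APAP against control, and 10.7% and 10.3% in COS+APAP against control. Of the partners and antagonists of MYC, 7 of 13 were tested. *Mnt*, a repressor that pairs with MAX, was the 1 lower in COS+APAP than in APAP (−1.62). In APAP against control 2 were higher (*Mnt* 1.76 and *Mxi1* 1.06) and 1 lower (*Mlxipl*, the glucose-sensing factor ChREBP, −1.91). In COS+APAP against control 1 was higher (*Mxi1* 0.78) and 1 lower (*Mlxipl* −1.90). Of 22 textbook MYC targets of growth metabolism 21 were tested. APAP against control gave 10 higher and 2 lower, led by the RNA helicase *Ddx21* (1.89), *Nop58* (1.28), *Ldha* (1.27) and *Polr1b* (1.13), with *Shmt2* (−1.08) and *Cad* (−0.81) the lower ones. COS+APAP against APAP gave 1 higher (*Cad* 0.66) and 4 lower (*Tfrc* −1.28, *Ddx21* −0.96, *Bop1* −0.72 and *Nolc1* −0.57). COS+APAP against control gave 4 higher, led by *Ldha* (1.64), and 2 lower (*Tfrc* −1.45 and *Shmt2* −0.74).

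Of 5 gluconeogenic genes tied to NR4A1 in mouse liver 4 were tested. *Fbp1* was higher in APAP than in control (1.35), the 1 call in any comparison, and *Pck1* differed by 0.59 in COS+APAP against APAP and −0.10 in APAP against control, neither called. Of 14 mRNAs with AU-rich elements known to be bound by ZFP36, 6 were tested. Beside them, 11.1% of all genes tested were lower in COS+APAP than in APAP. The shares higher and lower were 23.3% and 22.1% in APAP against control, and 10.7% and 10.3% in COS+APAP against control. Lower in COS+APAP than in APAP were 5 of them (*Cxcl2* −5.49, *Cxcl10* −3.90, *Plaur* −3.67, *Il1b* −3.47 and *Cxcl1* −1.76), *Cxcl2* on 0.00 and 0.15 FPKM in COS+APAP livers. In APAP against control 4 were higher (*Cxcl2* 4.91, *Plaur* 4.89, *Cxcl1* 4.87 and *Cxcl10* 3.06) and 1 lower (*Vegfa* −0.95). *Cxcl2* and *Plaur* passed the filter through APAP alone, which built their calls into passing, and without them 3 of 4 were lower in COS+APAP than in APAP and 2 of 4 higher in APAP than in control. In COS+APAP against control 1 was higher (*Cxcl1* 3.10) and 2 lower (*Il1b* −3.69 and *Vegfa* −0.95). The neutrophil-attracting chemokine *Cxcl1* stood at 7.24 and 18.8 FPKM in COS+APAP livers, 48.5 and 41.2 FPKM in APAP livers and 1.42 and 1.97 FPKM in control livers. Of 5 endothelial targets of KLF2 and KLF4, 3 were tested. *Thbd*, thrombomodulin, was lower in COS+APAP than in APAP (−3.93) and higher than control in COS+APAP (1.65) and in APAP (5.59). It too passed the filter through APAP alone, so that its differences from APAP were built into passing. *Nos3*, endothelial nitric oxide synthase, was higher than control in COS+APAP (1.24) and in APAP (2.17), and *Nostrin* was lower in COS+APAP than in APAP (−1.04) and than in control (−0.60).

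Markers of other liver cells moved with the same comparisons, and their part in the results was not tested. Beside all marker counts, 11.1% of all genes tested were lower and 11.2% higher in COS+APAP than in APAP. The shares higher and lower were 23.3% and 22.1% in APAP against control, and 10.7% and 10.3% in COS+APAP against control. Of 15 sinusoidal endothelial markers, 11 were lower and 1 higher in COS+APAP than in APAP, 5 higher and 1 lower in APAP than in control, and 7 lower and 1 higher in COS+APAP than in control. Their summed level was 36.2 to 40.3 FPKM in COS+APAP, 67.9 to 70.7 FPKM in APAP and 57.0 to 65.0 FPKM in control livers. Of 10 stellate cell markers 6 were tested, and 4 were lower in COS+APAP than in APAP, 2 higher in APAP than in control, and 3 lower in COS+APAP than in control. *Acta2* passed the filter through APAP alone, and without it 3 of 5 were lower in COS+APAP than in APAP and 1 of 5 higher in APAP than in control. These summed to 32.5 to 54.4 FPKM in COS+APAP, 84.1 to 89.9 FPKM in APAP and 75.3 to 81.4 FPKM in control livers. Erythroid markers summed to 309 to 316 FPKM in COS+APAP, 1075 to 1492 FPKM in APAP and 269 to 298 FPKM in control livers, and 4 of the 5 tested were lower in COS+APAP than in APAP and 4 higher in APAP than in control. Neutrophil markers summed to 2.60 to 3.90 FPKM in COS+APAP, 10.5 to 31.8 FPKM in APAP and 4.10 to 6.79 FPKM in control livers, with 3 of 8 tested, *S100a9* called in both comparisons with APAP, *Retnlg* past the filter through APAP alone and *Ly6g* at 0 in all 6 libraries. Cholangiocyte markers summed to 20.2 to 21.0 FPKM in COS+APAP, 35.4 to 51.1 FPKM in APAP and 28.5 to 34.4 FPKM in control livers, with 2 of 3 tested lower in COS+APAP than in APAP and 1 higher in APAP than in control.

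Kupffer cell markers summed to 145 to 152 FPKM in COS+APAP, 147 to 196 FPKM in APAP and 124 to 145 FPKM in control livers, and of 11 tested 1 was lower (*Adgre1*, past the filter through APAP alone) and 1 higher in COS+APAP than in APAP, 3 higher in APAP than in control and 1 higher in COS+APAP than in control. Hepatocyte markers summed to 45090 to 47320 FPKM in COS+APAP, 59090 to 61680 FPKM in APAP and 49760 to 50490 FPKM in control livers, and of 8 tested none was called in COS+APAP against APAP by edgeR, 4 were higher and 1 lower in APAP than in control, and 2 higher in COS+APAP than in control. Most of each sum was *Alb*. *Apob* differed most between APAP and control (3.41), with 36.4 and 132 FPKM in COS+APAP replicates 2 and 3, 172 and 208 FPKM in APAP livers and 24.8 and 14.2 FPKM in control livers. None of the 2 monocyte markers tested was called in any comparison by edgeR, and no lymphocyte marker passed the filter, at a sum of 0.98 to 2.81 FPKM. Of 5 adipocyte markers only *Fabp4* was tested, higher than control in COS+APAP (1.53) and in APAP (1.63), with *Lep* at 0 in all 6 libraries.

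The genes with the profile most like that of each tested regulator were found as the smallest root mean square difference over the 6 libraries in log2(FPKM + 1), each gene centred on its own mean. *Jun*, an AP-1 subunit, was nearest to both *Egr1* (0.62) and *Ier2* (0.35), with 5.45 and 15.2 FPKM in COS+APAP livers, 340 and 382 FPKM in APAP livers and 14.7 and 9.36 FPKM in control livers. *Klf6* was nearest to *Chka*, choline kinase (0.25), *Nr4a1* to *Thbs1*, thrombospondin (0.16), *Ier3* to the scaffold gene *Akap12* (0.09) and *Zfp36* to *Cpeb4*, a regulator of poly(A) tails (0.15). *Klf10* was nearest to *Spp1* (0.08), *Klf2* to *Borcs6* (0.04) and *Myc* to *Gm12751* (0.22). A short distance is easier to reach for a gene that varies little, as *Klf2* did. The 1 added to FPKM also shrinks differences at low levels, so near profiles can differ in fold change. *Cpeb4*, the nearest to *Zfp36*, stood at 6.67 and 6.99 FPKM in APAP livers against 0.30 and 0.21 FPKM in control livers. Among the regulators themselves, *Ier3* and *Nr4a1* were the closest pair (0.19) and *Egr1* and *Klf2* the farthest (2.83).

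Most of the regulators are compact genes. In GENCODE M21 models, they spanned 1240 bp (*Ier3*) to 20527 bp (*Nr4a1*), and the 10 had a median of 3 exons and a gene span of 5073 bp, against 9 exons and 20548 bp over 8642 coding genes tested. The median transcript length was 2672 bases against 2666. The coordinates given here are those of the deposited table, whose build is not stated, and they were identical to GENCODE M21 for 8 of the 10 and for 94.2% of 55141 genes.

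The AU-rich motif UAUUUAU, the letters bound by ZFP36 and its relatives, occurred in the 3′ untranslated region of 5 of the 10, with 4 sites in *Ier3*, 3 in *Zfp36* itself, 2 in *Klf6* and 1 each in *Klf10* and *Klf2*. Of the 8642 coding genes tested, 23.8% had it, and 27.5% of those with an untranslated region within the length range of the 10. Per 1000 bases there were 1.03 sites in the regulators and 0.27 over all. One site each is printed in DNA letters from GENCODE M21 (GRCm38), with the motif in capitals, for the gene with the most sites, for *Zfp36* itself, for *Klf6* and for *Klf2*, which edgeR did not call.
*Ier3* site, chr17:35822586-35822614, plus strand: tgtaacacagaTATTTATtacgatttata
*Zfp36* site, chr7:28376951-28376979, minus strand: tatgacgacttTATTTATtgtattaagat
*Klf6* site, chr13:5868943-5868971, plus strand: cacaccggctgTATTTATtatgtaacatt
*Klf2* site, chr8:72320988-72321016, plus strand: aaacagactgcTATTTATtggaccttagg

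Motifs were searched on both strands of 300-base RefSeq promoters (GRCm38.p6), which matched 6 of the 10 by symbol (*Klf4*, *Zfp36*, *Klf2*, *Klf6*, *Nr4a1* and *Ier3*). The GC box GGGCGG was in all 6, against 64.5% of the 7110 promoters of genes tested and 35.9% of all 27025 promoters. The EGR site GCGNGGGCG, which can overlap a GC box, was in 4 of 6 (*Klf4*, *Zfp36*, *Klf2* and *Nr4a1*), against 10.5% and 5.6%. The CRE core TGACG was in 3 of 6 (*Klf4*, *Klf2* and *Nr4a1*), against 33.6% and 21.0%, and the full CRE TGACGTCA, which contains it, in none, against 3.3% and 1.9%. The CArG box was in *Zfp36* alone, against 1.3% and 1.6%. The E box CACGTG was in *Klf4* and *Klf6*, against 10.7% and 7.2%. Other motifs were in at most 1 of 6, the KLF core CACCC in *Klf2* (61.8% and 56.7%), the antioxidant response element TGACNNNGC in *Klf6* (15.0% and 12.5%) and the ETS core CCGGAAG in *Zfp36* (20.2% and 9.1%). The AP-1 site TGANTCA (5.1% and 7.9%) and the TATA box TATAAA (7.8% and 14.2%) were in none. These are matches of letters in a short window and say nothing of binding.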

How the data were processed

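Poly(A) RNA of mouse liver was sequenced as read pairs on an Illumina NovaSeq, per the labels' protocols. Reads were processed with HISAT2 2.0 and StringTie 1.3.0, per the submitters' processing notes, and the genome build was not stated. For every gene and matched library the authors deposited an estimated count, as the file headers name it. The authors deposited the FPKM value beside it, as the file headers name it. A further 6 value columns matched no sample. They were seen while the file was inspected and were not used. No row lacked a gene, and 134 symbols were repeated, none of them a member.

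Groups came from titles, source names and treatment labels. The counts were whole and entered edgeR 4.0.16 (R 4.3.3) unchanged, with TMM scaling, 1 model of the 3 groups over all 6 libraries, the two-sided quasi-likelihood F test and Benjamini-Hochberg adjustment over 10051 genes, those whose FPKM averaged 1 or more. A gene was called at an adjusted p below 0.05, and standard errors are the log2 fold change over the square root of F. The script was tested on simulated data. No exact permutation test of 2 libraries against 2 can give a p below 0.33, so calls rest on a spread shared between genes and groups. Alternatives were limma 3.58.1, DESeq2 1.42.0, other scalings and filters, counts divided by 4, a replicate block and leaving out each library.

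The members and the gene lists were chosen with earlier results of these data known. Genes named were all members, the nearest profile of each and up to 4 called genes with the largest change per list. Others (*Maff*, *Klf15*, *Pck1*, *Cxcl1* and *Apob* levels, and the full set where 5 or fewer were called) were named after their values were seen. Whether counting used strand was not stated.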

Additional observations from a re-analysis of the deposited data

How the results depend on the processing

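Calls in APAP against control were steadier than calls against COS+APAP. The log2 fold changes of the tested members were recomputed under each alternative. In APAP against control 149 kept their sign and their side of the threshold, and 4 became stronger, which means that a call was gained. In COS+APAP against APAP 130 kept both, 12 became stronger and 11 weaker, which means that a call was lost. In COS+APAP against control 139 kept both, 8 became stronger and 6 reversed in sign. Changes in size were not counted. The cause of each shift was not tested.

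Genes called in COS+APAP against APAP were 2249, and 3552 with DESeq2 and 612 to 1941 with 1 library left out. In APAP against control they were 4561, and 3033 to 4117 with 1 library left out. In COS+APAP against control they were 2109, and 3421 with DESeq2 and 590 to 1716 with 1 library left out. Members called higher in COS+APAP than in control were 0, and 1 with DESeq2 (*Klf6*) and 0 to 1 with 1 library left out. Members called lower there were 0, and 1 (*Klf10*) with library totals alone, with DESeq2 and with limma on log2(FPKM + 1) or log2(FPKM + 0.1). *Klf10* was not called there with 1 library left out. *Myc* (−0.65 there) was −0.14 without COS+APAP replicate 2 and −1.43 without COS+APAP replicate 3. In COS+APAP against control, *Egr1* (0.54) reversed to −0.040 with limma on log2(FPKM + 0.1), and ranged from −1.41 to 1.34 with 1 library left out. *Ier2* (0.06) reversed there to −0.12 with library totals alone, −0.22 with limma on log2(FPKM + 1), −0.25 with limma on log2(FPKM + 0.1), and ranged from −0.76 to 0.57 with 1 library left out. In both, the lowest value was without COS+APAP replicate 3 and the highest without COS+APAP replicate 2.

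The replicate block gave 31 genes in COS+APAP against APAP, with 1 member lower (*Ier2*, −3.92, adjusted p = 0.0493), and 139 in COS+APAP against control, with 1 member higher (*Klf6*, 2.69, adjusted p = 0.0392). Under it *Myc* was called higher in APAP than in control (0.77, adjusted p = 0.0234). Deviations of same-numbered APAP and control libraries had a correlation of 0.01. With 2 libraries a group this is 1 value over all genes tested, and it cannot tell whether libraries shared a batch. COS+APAP shares only the number 3 with the other groups, which leaves its replicate 2 out of the block comparison.

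Depth limits the low members. *Ier3* in COS+APAP livers rests on 27 and 31 estimated counts, where a fragment was worth about 4.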

Other observations

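A pair of small noncoding RNAs made by RNA polymerase III, *Rn7sk* and *Rpph1*, were among the 3 nearest profiles of a regulator. They were named after their values were seen, and nothing about them was tested. Whether their values depend on how each library was prepared from poly(A) RNA was not tested either. *Rn7sk*, the 7SK RNA that holds the elongation factor P-TEFb inactive, was among the 3 nearest profiles of *Egr1* and of *Ier2*. It stood at 2.26 and 8.36 FPKM in COS+APAP livers, 112 and 110 FPKM in APAP livers and 7.81 and 2.02 FPKM in control livers. *Rpph1*, the RNA of ribonuclease P, was the second nearest of *Zfp36*, with 1.04 and 1.72 FPKM in COS+APAP livers, 11.4 and 9.17 FPKM in APAP livers and 0.96 and 0.58 FPKM in control livers.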
